A study of Homo sapiens with 2 samples.

Results

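The genes described are the heat shock proteins and DNAJ chaperones, taken as every probe set whose single listed gene symbol begins with HSPA, HSPB, HSPD, HSPE, HSPH, HSP90, DNAJA, DNAJB or DNAJC. The rule found 173 of the 54675 probe sets of the array, for 74 of the 19775 genes named on it. RNA of a line with an FDFT1 vector was set against RNA of a line with a control vector, 1 Affymetrix array apiece. Both lines were made from CL1-0, a long-established line of human lung adenocarcinoma that is labelled as type II alveolar cells. FDFT1 encodes squalene synthase, which commits the mevalonate pathway to sterols. Both lines were stably transduced and kept under puromycin for 2 weeks. The sources used here do not give the promoter of the vectors, or whether each line was a clone or a pool.

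Chaperones bind unfolded stretches of other proteins and keep them from aggregating. HSP70 proteins (the HSPA genes) do so in cycles of ATP hydrolysis, which J-domain proteins (the DNAJ genes) start and nucleotide exchange factors end. HSP90 proteins act later, on clients such as kinases and steroid receptors, while small heat shock proteins (the HSPB genes) hold unfolded proteins without ATP. The cytosol, the endoplasmic reticulum and the mitochondria each have their own HSP70 with its own J-domain partners. In the cytosol and nucleus the transcription factor HSF1 raises many of these genes during heat or proteotoxic stress, and the unfolded protein response raises those of the endoplasmic reticulum. The symbols also take in a few proteins of other kinds, such as HSPBAP1, a protein that binds HSPB1.

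Values are MAS5 signals, the authors' summary of the brightness of a probe set. Signals are given as deposited. A difference is the log2 signal of the FDFT1 array minus that of the control vector array, after the arrays were centred on each other. The centring shift was -0.11, so a gene with slightly lower deposited signals on the FDFT1 array can have a difference just above 0. Signals under 12.2, the median of all signals, were set to that floor. Each gene is represented by the brightest of its measured probe sets, and measured means that at least 1 array reached the floor. Of the 74 genes 61 were measured, on 135 of the 173 probe sets. There were no replicates, so no difference carries a p-value. The probe set error given beside a difference is the scatter between probe sets of the same gene at that brightness. It ranged from 0.49 for the dimmest probe sets to 0.097 for the brightest and leaves out differences between cultures. In a bulk sample, fewer cells expressing a gene and less RNA per cell cannot be told apart.

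The chaperone genes had nearly the same signals in FDFT1 cells and control cells, as did most measured genes. None of the 61 measured genes differed by 2-fold or more in either direction, where 0.571% of 12968 measured genes were at least 2-fold higher and 0.578% at least 2-fold lower. With shares this small, a count of none among 61 genes does not set the members apart. The median difference was 0.04, against 0.00 (-0.0013) over all measured genes. Above 0 lay 34 of the 61, and 49.8% of all measured genes did. Without centring 20 of the 61 were above 0, as were 32.3% of all measured genes. The 14 genes that changed sign there were DNAJA1, DNAJA3, DNAJB14, DNAJC4, DNAJC16, DNAJC30, HSP90AA1, HSP90AB1, HSP90B1, HSPA5, HSPA9, HSPA13, HSPD1 and HSPH1, all within 1 error of 0. After loess scaling DNAJC6, DNAJC14 and HSP90AB1 changed sign. Averaging the probe sets of a gene turned the sign of 10 members (DNAJA3, DNAJB5, DNAJC3, DNAJC8, DNAJC15, DNAJC18, DNAJC22, DNAJC27, DNAJC30 and HSPA4L), and leaving out those ending in _x_at or _s_at turned DNAJC1 and DNAJC8. Between -0.2 and 0.2 lay 45 of the 61 genes (73.8%), against 58.0% of all measured genes. These shares were not matched for brightness, and 28 of the 61 members had a mean log2 signal of 9 and over. With the floor, DNAJA4 was at the low end with -0.83 and DNAJC28 at the high end with 0.48, both at signals under 31.

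**Figure D1:**
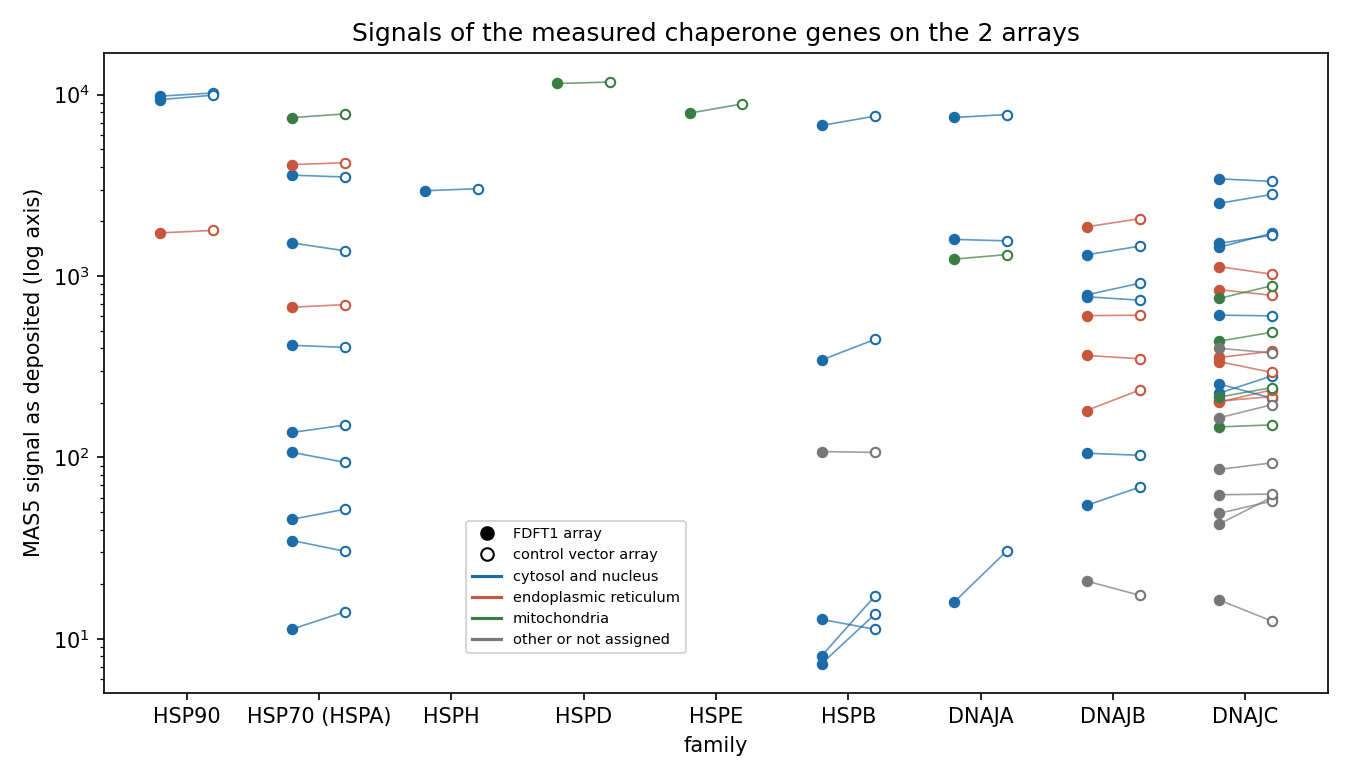
MAS5 signal as deposited (log axis) of the brightest probe set of each of the 61 measured genes, by family, on the FDFT1 array (filled, left) and the control vector array (open, right), with lines joining the same gene and colours for the compartment. The HSPB column holds HSPBP1 and HSPBAP1 too, which match by symbol. Most lines are close to level, and the steepest, DNAJA4 and the HSPB genes HSPB7 and HSPB9, lie at signals under 31.

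Set against the probe set error, 49 of the 61 genes lay within 1 error of 0 (80.3%, against 66.9% of all measured genes), counting values that the floor bounds as they stand. None lay 2 or more errors from 0, as 7.25% of all measured genes did. This second threshold was chosen after the values had been seen. When the probe sets of a gene were averaged, DNAJC21 and HSPD1 passed it, at 0.37 and 0.30. Those means take in dim probe sets with wider errors but were set against the error of the brightest probe set. For DNAJC21 probe sets at 1.07 and 0.96 had an error of 0.49, as did the HSPD1 probe set at 0.88. Without probe sets ending in _x_at or _s_at DNAJA1 passed it, at 0.14, with the error computed anew from the probe sets left. That value is less than 2 of the main errors of 0.097. The shares of all genes under these settings are not given here. Differences spread least in the brightest signal range, among members and all genes alike. Of the 12 with a mean log2 signal of 11 and over, the lowest was at -0.06 and the highest at 0.15, with an SD over genes of 0.072, against 0.128 over the 944 measured genes of that brightness. For the 16 members between 9 and 11 the SD was 0.131, against 0.182 over 2657 genes. For the 7 members under 5 it was 0.458, against 0.479 over 2853 genes. The median absolute difference, which single outlying genes move little, was nearly the same for members and all genes at 11 and over (0.063 and 0.064) and between 9 and 11 (0.113 and 0.110). Under 5 it was 0.37 for members and 0.30 for all genes.

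**Figure D2:**
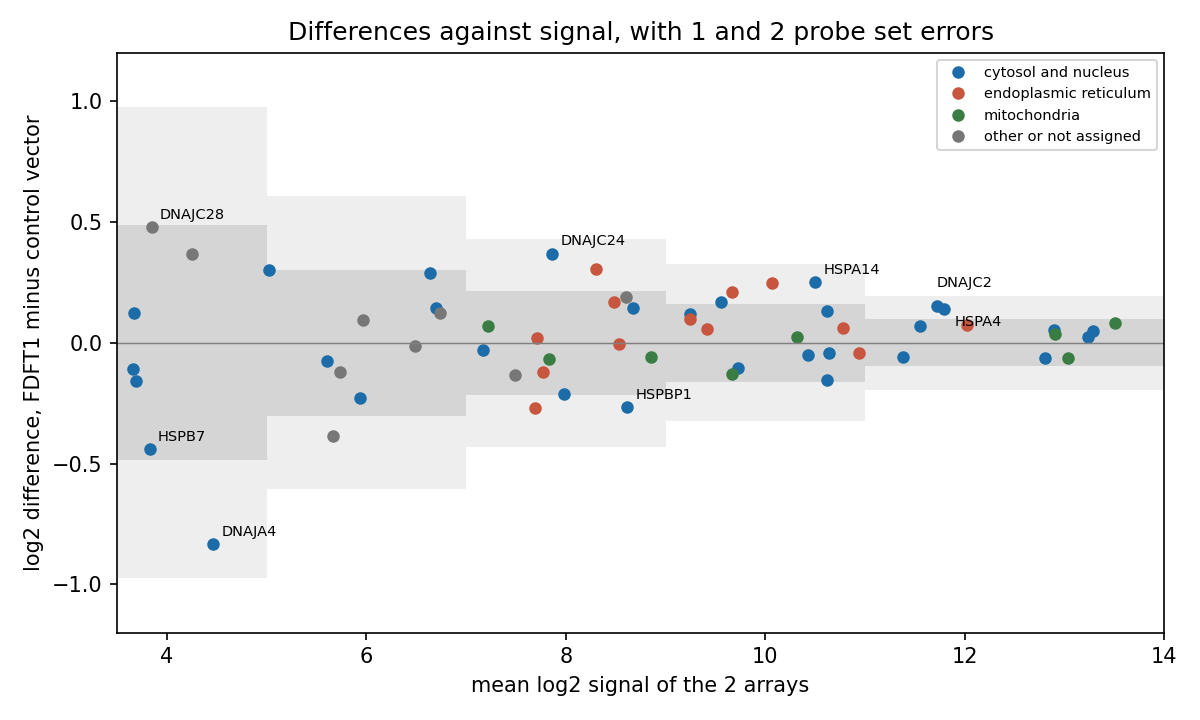
Log2 difference, FDFT1 minus control vector, against the mean log2 signal of the 2 arrays for the 61 measured genes. Dark and light bands mark 1 and 2 probe set errors, from 0.49 in the dimmest range to 0.097 in the brightest. All 61 points lie inside the light band, and DNAJA4 and DNAJC24 are the farthest from 0 in units of error.

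Short stretches of promoter were searched for a fixed pattern of each sequence that HSF1 and the unfolded protein response are known to use. A gene without an exact match in its window is not thereby shown to lack such a sequence. Promoter windows of 300 bases, from 250 before to 50 after a start site, were taken from RefSeq on GRCh38.p14 and matched 67 of the 74 genes. The heat shock element was searched on both strands as GAA, TTC and GAA, each parted from the next by NN, any 2 bases. It was found in 6 of these genes, in 6 of their 89 windows, and in 0.49% of all 35116 windows. Examples follow, 5′ to 3′ on the gene's strand, with the match in capitals.
HSP90AA1, chr14:102087112-102087140, minus strand: gagggttcTTCCGGAAGGTTCgggaggct
HSP90AB1, chr6:44247823-44247851, plus strand: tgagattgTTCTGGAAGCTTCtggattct
HSPA6, chr1:161524458-161524486, plus strand: cggaaaggTTCGCGAAAGTTCgcggcggc
DNAJB6, chr7:157336865-157336893, plus strand: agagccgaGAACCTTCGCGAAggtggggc
HSPD1, chr2:197500060-197500088, minus strand: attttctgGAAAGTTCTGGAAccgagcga
The other was DNAJA1, where the match begins 4 bases past the start site. HSP90AB1 has a second match, and in HSPD1, where the window lies at a further start site, a second match overlaps the one shown. Both HSPD1 matches lie downstream of the HSPD1 start site nearest to HSPE1, which borders the shared stretch shown further below.

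The endoplasmic reticulum stress element was searched on both strands as CCAAT and CCACG with 9 bases of any kind between them. It was found in 2 of the 67 genes, HSPA5 and HSP90B1, in 2 of the 89 windows of these 67 genes, and in 0.0769% of all windows. Its first bases are a CCAAT box, which by itself was in 29 of the 67 genes, in 34 of their 89 windows, and in 34.6% of all windows. The matches are shown because these are the HSP70 and HSP90 of the endoplasmic reticulum.
HSPA5, chr9:125241386-125241414, minus strand: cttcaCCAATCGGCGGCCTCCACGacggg
HSP90B1, chr12:103930211-103930239, plus strand: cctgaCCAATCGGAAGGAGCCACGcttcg
HSP90B1 has a second match on the other strand. A match is a description of the letters in the window and says nothing of binding in these cells.

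The 6 genes with a match to the heat shock element pattern differed little between the arrays. Their differences ran from 0.03 for HSP90AB1 to 0.30 for HSPA6, with a median of 0.07, and 5 of the 6 lay within 1 probe set error, DNAJB6 being just outside. Of all measured genes 66.9% lay within 1 error. Above 0 were all 6 after centring, against 49.8% of all measured genes, and 2 without it, against 32.3%. With so few genes, mostly within their errors, no rise can be read from these counts. HSPA5 and HSP90B1 were at 0.07 and 0.06, both within 1 error, and without centring both were below 0.

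In the cytosol and nucleus, 31 of 37 members were measured, with 16 above 0 and 15 below and a median of 0.03. The mean had the other sign (-0.0098). The median was 0.12 over the 23 left without _x_at and _s_at probe sets. HSP90AA1, the stress-inducible cytosolic HSP90, had a signal of 9813 in FDFT1 cells and 10219.7 in control cells, a difference of 0.05 with an error of 0.097. Its 4 probe sets lay between 0.05 and 0.13. HSP90AB1, the constitutive form, had 9391 in FDFT1 cells and 9933 in control cells, a difference of 0.03, and its 3 probe sets lay between 0.03 and 0.05. The differences of both genes turned below 0 without centring, and that of HSP90AB1 also after loess scaling.

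Cytosolic HSP70 genes ran from -0.16 for HSPA12B to 0.30 for HSPA6. HSPA6, a strictly stress-inducible HSP70, was dim, at 34.8 in FDFT1 cells and 30.3 in control cells, a difference of 0.30 with an error of 0.30. Its second probe set lay at 0.57 with an error of 0.49. HSPA2, abundant in testis, had 415 in FDFT1 cells and 404 in control cells (0.14, error 0.22). HSPA1L, encoded beside HSPA1A and HSPA1B, had 45.6 in FDFT1 cells and 51.8 in control cells (-0.08, error 0.30). These differences did not exceed their errors. The atypical HSPA12A was at 0.29 (106 in FDFT1 cells, 93.8 in control cells, error 0.30). HSPA12B had 11.3 in FDFT1 cells, under the floor after centring, and 14.1 in control cells, so -0.16 is a lower bound on the size.

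HSPA14 was among the members farthest from 0 in units of error. It had 1522 in FDFT1 cells and 1376 in control cells, a difference of 0.25 with an error of 0.16, and its 3 probe sets lay at 0.25, 0.19 and 0.13. HSPA14 sits on the ribosome with the J-domain protein DNAJC2, and together they assist emerging chains. DNAJC2 had 3435 in FDFT1 cells and 3327 in control cells, a difference of 0.15 with an error of 0.097 on 1 probe set. Both were about 1.5 errors above 0.

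The cytosolic nucleotide exchange factors of the HSP110 type were close to 0 or slightly above. HSPA4 had 3598 in FDFT1 cells and 3516 in control cells, a difference of 0.14 with an error of 0.097. All 4 of its probe sets were above 0, from 0.07 to 0.40, the highest being the dimmest. HSPH1, the heat-inducible member, had 2952 in FDFT1 cells and 3032 in control cells (0.07, error 0.097), with its other probe sets at -0.12 and 0.20. HSPA4L had 137 in FDFT1 cells and 151 in control cells (-0.03, error 0.22). HSPBP1, an exchange factor of another fold, had 345 in FDFT1 cells and 447 in control cells, a difference of -0.27 with an error of 0.22 on 1 probe set. None of these exceeded 2 errors.

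Of the small heat shock proteins, HSPB1 was measured far above the floor and the others near or under it. HSPB1 (HSP27) had 6771.5 in FDFT1 cells and 7609 in control cells, a difference of -0.06 with an error of 0.097. HSPB7, known from heart muscle, had 8.1 in FDFT1 cells, under the floor, and 17.2 in control cells, and its difference of -0.44 is a lower bound on the size. HSPB9, known from testis, likewise had 7.3 in FDFT1 cells and 13.6 in control cells (-0.11, a lower bound). HSPB8, which works with BAG3, had 12.8 in FDFT1 cells and 11.3 in control cells (0.12, a lower bound). The error at this brightness is 0.49. Without a floor HSPB7 was at -0.98 and HSPB9 at -0.80, both beyond 1 error. HSPB2, HSPB3 and HSPB6 did not reach the floor on either array.

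Class A and B J-domain proteins of the cytosol are the general partners of HSP70. DNAJA1 had 7487 in FDFT1 cells and 7771 in control cells (0.05, error 0.097), and DNAJA2 had 1592 in FDFT1 cells and 1563 in control cells (0.13, error 0.16). Both probe sets of each gene were above 0, though for DNAJA1 the value was below 0 without centring. DNAJB1, the main heat-inducible HSP40, had 1309 in FDFT1 cells and 1461 in control cells (-0.05, error 0.16). DNAJB4 had 787 in FDFT1 cells and 912 in control cells (-0.11, error 0.16). In both genes the 2 probe sets were below 0. DNAJB6, a suppressor of aggregation, was at 0.17 (769 in FDFT1 cells, 736 in control cells) and DNAJB2, a neuronal J-domain protein with ubiquitin-binding motifs, at 0.14 (105 in FDFT1 cells, 103 in control cells). DNAJB5 was at -0.23 (54.4 in FDFT1 cells, 68.5 in control cells, error 0.30), with its other probe set at 0.31.

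DNAJA4 had the largest difference of all members when the floor was applied, and without a floor HSPB7, at -0.98, passed it among the 61. Its signal was 16.0 in FDFT1 cells and 30.6 in control cells, a difference of -0.83 with an error of 0.49, or 1.7 errors. With the floor it was the only member at least 1.5-fold lower, where 3.28% of all measured genes were, and no member was at least 1.5-fold higher, where 3.91% were. Its 3 other probe sets did not reach the floor on either array. With the floor at the 75th percentile of all signals DNAJA4 was not measured.

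Class C J-domain proteins of the cytosol and nucleus have single, specialised tasks. DNAJC24, which takes part in making diphthamide on elongation factor 2, had 254 in FDFT1 cells and 212 in control cells. Its difference of 0.37, with an error of 0.22, was the farthest from 0 of any member in units of error (1.71), on 1 probe set. DNAJC7, a bridge between HSP70 and HSP90, had 2517 in FDFT1 cells and 2819 in control cells (-0.06, error 0.097). DNAJC9, a histone chaperone, was at -0.04 (1514 in FDFT1 cells, 1678 in control cells, error 0.16). DNAJC8, a spliceosome component, was at -0.15 (1440 in FDFT1 cells, 1722 in control cells, error 0.16), with its 2 other probe sets at -0.08 and 0.27. DNAJC17, a nuclear protein, was at -0.21 (226 in FDFT1 cells, 282 in control cells, error 0.22). DNAJC21, a factor of large ribosomal subunit assembly, was at 0.12 (609 in FDFT1 cells, 603 in control cells), and 6 of its 7 probe sets were above 0.

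In the endoplasmic reticulum all 13 members were measured, with 9 above 0 and 4 below and a median of 0.06. Without centring 4 of the 13 were above 0, and the median was -0.045, against -0.11 over all measured genes. HSPA5 (BiP), the HSP70 of the lumen and a main target of the unfolded protein response, had 4117 in FDFT1 cells and 4213 in control cells, a difference of 0.07 with an error of 0.097. HSP90B1 (GRP94), the lumenal HSP90, had 1729 in FDFT1 cells and 1784 in control cells, a difference of 0.06 with an error of 0.16. Both its probe sets end in _x_at and can match related copies. HSPA13, a second HSP70 of this compartment, was at 0.06 (673 in FDFT1 cells, 696 in control cells, error 0.16).

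The J-domain proteins of the compartment lay on both sides of 0. DNAJC10 (ERdj5), a disulfide reductase, had 1127 in FDFT1 cells and 1023 in control cells, a difference of 0.25 with an error of 0.16, and 4 of its 5 probe sets were above 0. DNAJC3 (p58IPK), a lumenal co-chaperone, was at 0.31 (338 in FDFT1 cells, 294 in control cells, error 0.22), but its other probe sets lay at -0.36, 0.13 and -0.10 and the mean of the 4 was -0.0044. DNAJC1, which sits at the ribosome, was at 0.21 (842 in FDFT1 cells, 783 in control cells, error 0.16) and DNAJB9 (ERdj4), which promotes degradation of misfolded proteins, at 0.17 (365 in FDFT1 cells, 349.8 in control cells), with all 3 probe sets above 0. DNAJB11 (ERdj3) had 1868 in FDFT1 cells and 2069.8 in control cells, a difference of -0.04 with an error of 0.16. The membrane protein DNAJB12, which acts in degradation with DNAJB14, was at -0.27 (181 in FDFT1 cells, 235 in control cells, error 0.22). Its other probe sets lay at -0.25, 0.27 and -0.0024, and the mean of all 4 was -0.064. DNAJB14 was at 0.10 (605 in FDFT1 cells, 608 in control cells). DNAJC18 was at -0.12, DNAJC14 at -0.01 and DNAJC16 at 0.02.

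In the mitochondria all 8 members were measured and all lay within 1 error, from -0.13 for DNAJC19 to 0.08 for HSPD1, with a median of -0.02. Above 0 lay 4 of the 8, or none without centring. HSPD1 (HSP60) and HSPE1 (HSP10) form the chaperonin chamber of the matrix and are transcribed in opposite directions from a shared promoter. The 104 bases between their RefSeq start sites, shown because they serve both genes, read on the HSPE1 strand as follows.
HSPD1 and HSPE1, chr2:197500275-197500378, plus strand: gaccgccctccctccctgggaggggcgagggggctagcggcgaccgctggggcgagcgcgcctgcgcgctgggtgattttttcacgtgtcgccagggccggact
HSPD1 had 11528.5 in FDFT1 cells and 11735.3 in control cells, a difference of 0.08. HSPE1 had 7910.1 in FDFT1 cells and 8895 in control cells, a difference of -0.06. The error of each was 0.097, so neither gene of the pair departed from 0 by more than its error.

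HSPA9 (mortalin), the mitochondrial HSP70 that pulls in imported proteins, had 7469.9 in FDFT1 cells and 7842 in control cells, a difference of 0.04 with an error of 0.097. Of its 3 other probe sets 2 lay above 0, at 0.12 and 0.24, and a dim one lay at -0.38. Its J-domain partner DNAJA3 was at 0.02 (1239.5 in FDFT1 cells, 1313 in control cells, error 0.16). DNAJC19 and DNAJC15, J-domain proteins of the import motor, were at -0.13 (752 in FDFT1 cells, 884 in control cells, error 0.16) and -0.06 (437 in FDFT1 cells, 489.7 in control cells). DNAJC11, associated with cristae organisation, was at -0.07 and DNAJC30 at 0.07.

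**Figure D3:**
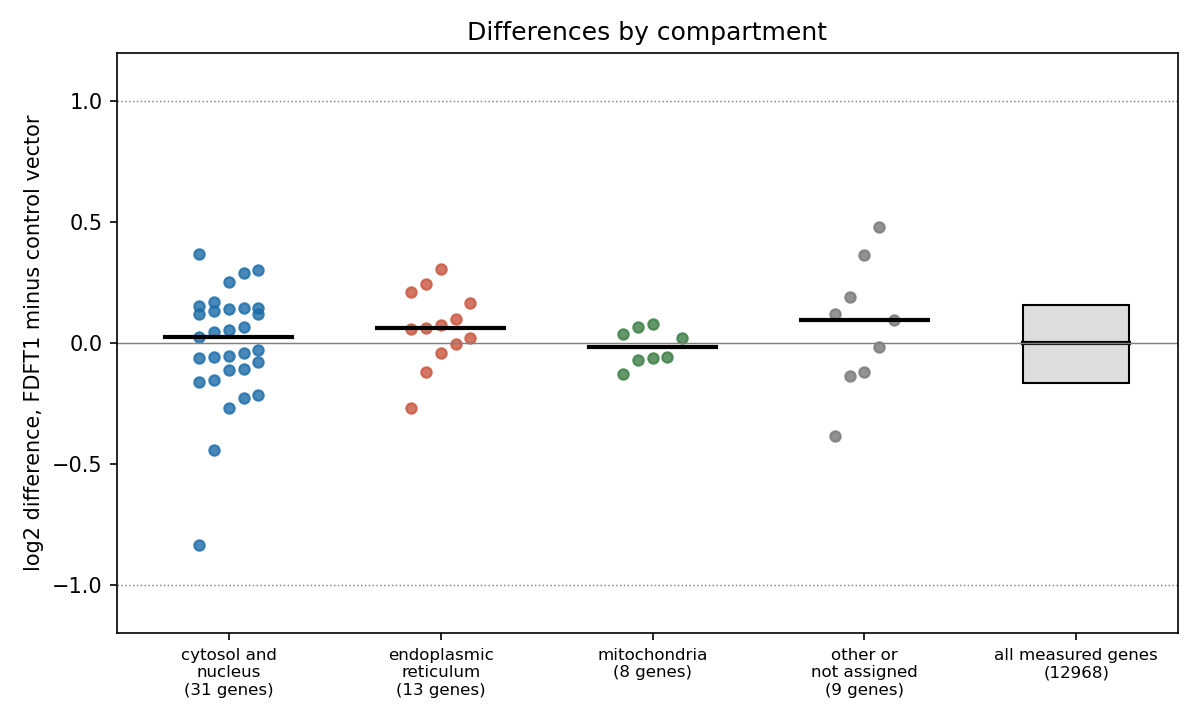
Log2 difference, FDFT1 minus control vector, of the 61 measured genes by compartment, 1 point per gene with the median as a line, and the quartiles and median of all 12968 measured genes as a box. Dotted lines mark 2-fold. The medians lie at 0.03 for the cytosol and nucleus, 0.06 for the endoplasmic reticulum and -0.02 for the mitochondria, and no point reaches a dotted line.

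The spread over genes (SD) was 0.24 in the cytosol and nucleus, 0.15 in the endoplasmic reticulum and 0.075 in the mitochondria. Of the 31 cytosolic and nuclear genes 10 had a mean log2 signal under 7, where errors are wide, and no gene of the other 2 compartments did. Whether this brightness sets the spread was not tested, and with 1 array a group the compartments have no test.

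Members that act elsewhere, or whose place was not assigned, were 9 measured genes with a median of 0.09. DNAJC13, which works on endosomes, was at 0.19 (399.6 in FDFT1 cells, 377 in control cells), DNAJC5, the cysteine string protein of secretory vesicles, at -0.13 and DNAJC6, the auxilin that uncoats clathrin, at -0.01. DNAJC22 was at -0.39 (42.9 in FDFT1 cells, 60.3 in control cells, error 0.30). DNAJC28 had 16.4 in FDFT1 cells and 12.5 in control cells, under the floor after centring, and its 0.48 is a lower bound with an error of 0.49. DNAJB13, a protein of the sperm flagellum, was at 0.37 (20.8 in FDFT1 cells, 17.4 in control cells, error 0.49). DNAJC27 was at -0.12 (49.1 in FDFT1 cells, 57.4 in control cells, error 0.30), but its other measured probe set, with 48.5 in FDFT1 cells and 26.5 in control cells, was at 0.98, and their mean was 0.43. DNAJC4 was at 0.09 and HSPBAP1 at 0.12 (108 in FDFT1 cells, 107 in control cells, error 0.30).

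The 13 unmeasured genes had no signal above 9.4 on either array. They were DNAJB7, DNAJB8, DNAJC12, DNAJC5B, DNAJC5G, HSPB2, HSPB3, HSPB6 and 4 antisense and 1 divergent transcript (DNAJB8-AS1, DNAJC27-AS1, DNAJC9-AS1, HSPA2-AS1 and DNAJC3-DT). A further 14 probe sets list several genes of which at least 1 has such a symbol, and they were left out. For this reason HSPA8, HSPA1A, HSPA1B and DNAJC25 are not analysed here, which leaves the main constitutive and the main inducible cytosolic HSP70 without a value.

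Probe sets of the same gene show how far a single value can be trusted. Of the 40 members with at least 2 measured probe sets, 14 had all of them above 0 and 7 all below. That is 52.5% on one side, against 40.8% of 6535 genes. At the level of probe sets 3 of 135 were at least 2-fold higher (0.775% of all measured probe sets with 1 gene were) and none was at least 2-fold lower (0.71% were). The 3 were dim probe sets of DNAJC16, DNAJC21 and DNAJC22, at 1.28, 1.07 and 1.02 with an error of 0.49. The first and the last are lower bounds, since the control array was under the floor. The DNAJC16 probe set had 28.5 in FDFT1 cells and 11.96 in control cells, while the brighter probe sets of that gene lay at 0.02 and -0.06. HSPD1 showed the same split by brightness, with 0.08 and -0.04 on its bright probe sets, 0.58 on one at 141 in FDFT1 cells and 101 in control cells, and 0.88 on one at 22.8 in FDFT1 cells and 13.4 in control cells. The remaining one, at the floor, lay at 0.016.

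**Figure D4:**
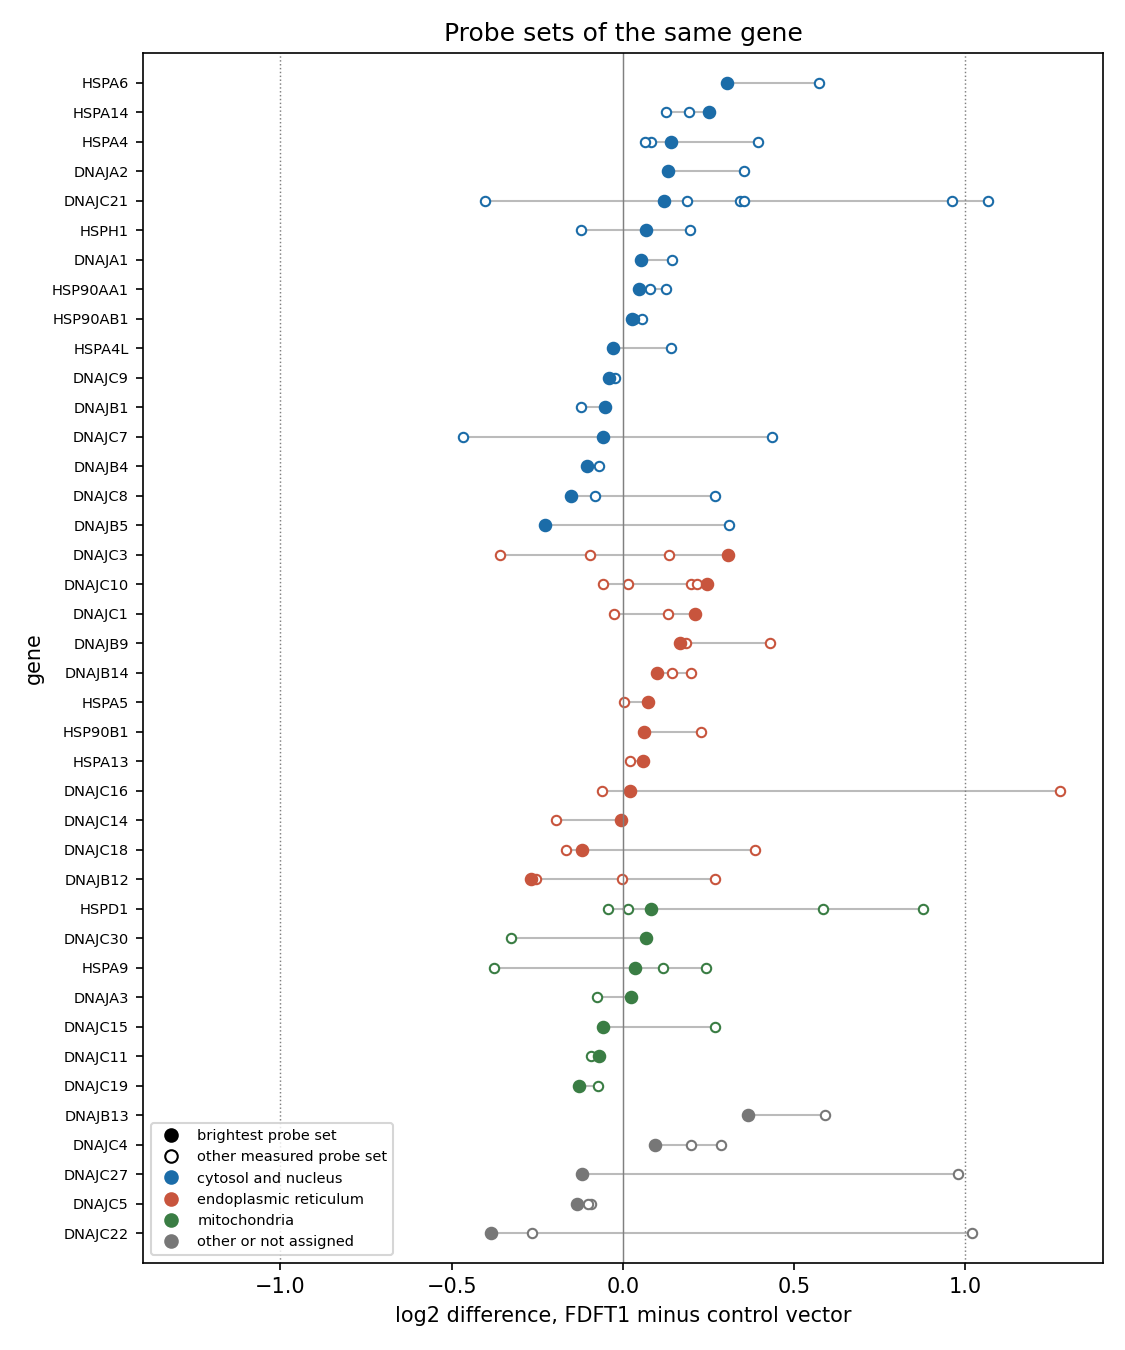
Log2 difference, FDFT1 minus control vector, of every measured probe set for the 40 members with at least 2, grouped by compartment. Filled points are the brightest probe set, which gave the gene its value, and open points the others; dotted lines mark 2-fold. HSP90AA1, HSP90AB1, DNAJC5 and DNAJC9 have tight clusters near 0, whereas DNAJC21, DNAJC16, DNAJC22, DNAJC27 and HSPD1 have an open point near or above 1.

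Other genes of protein folding were near 0 as groups. The HSF and HSF1 regulators had 2 of 4 measured genes above 0 and a median of 0.0012, and HSF1 itself had 128 in FDFT1 cells and 137 in control cells (0.0026, error 0.22). The cytosolic chaperonin TRiC and prefoldin had 9 of 13 above 0 and a median of 0.04, from CCT3 at -0.07 to CCT6B at 0.19. HSP90 co-chaperones had 7 of 15 above 0 and a median of -0.0018. One of them, CHORDC1, had 2459 in FDFT1 cells and 2018 in control cells, a difference of 0.39 with an error of 0.097, or 4.0 errors. Its second probe set was at 0.036, and the mean of both was 0.21. TTC4, which binds HSP70 and HSP90, was at -0.36 (error 0.22).

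The HSP70 co-factors outside the DNAJ family had 7 of 15 above 0 and a median of -0.05. Both exchange factors of BiP were at the low end, HYOU1 at -0.35 (549 in FDFT1 cells, 754 in control cells, error 0.16) and SIL1 at -0.32 (152 in FDFT1 cells, 204 in control cells, error 0.22), each on 1 probe set. The folding enzymes and lectins of the endoplasmic reticulum had 4 of 14 above 0 and a median of -0.08, against 9 of 13 and 0.06 for the chaperones of that compartment. PDIA4, a disulfide isomerase, was at -0.25 and UGGT1, which marks misfolded glycoproteins, at -0.27, while ERO1B, an oxidase, was at 0.61 (95.9 in FDFT1 cells, 67.5 in control cells, error 0.30). Mitochondrial chaperones and proteases had 6 of 11 above 0 and a median of 0.03, from CLPB at -0.27 to CLPX at 0.27. The second probe set of CLPB lay at 0.25, as did that of CLPX. Of 3 small heat shock proteins outside the HSPB symbols, only CRYAB was measured, at -0.05. No gene of these lists differed by 2-fold. Within 2 errors of 0 lay 14 of 15 HSP90 co-chaperones, 14 of 15 HSP70 co-factors and 12 of 14 folding enzymes and lectins. So did all measured genes of the other folding lists. Besides CHORDC1, those past 2 errors were HYOU1 and SERPINH1, below 0, and ERO1B, above 0. SERPINH1, of the folding enzymes and lectins, was at -0.21 (1883 in FDFT1 cells, 2340 in control cells, error 0.097) on 1 probe set. Of all measured genes 7.25% lay 2 or more errors from 0.

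Of 12 markers of alveolar type II cells 7 were measured, 3 above 0 and 4 below, from SFTPC at -0.69 to LAMP3 at 0.26. SFTPC, the surfactant protein that defines these cells, had 16.9 in FDFT1 cells and 29.3 in control cells, while LPCAT1, which is also expressed elsewhere, had 787 in FDFT1 cells and 934 in control cells. Of 8 blood, 8 fibroblast and endothelial and 7 airway markers, 4, 3 and 1 were measured. The airway marker was MUC5AC, a mucin. Its brightest probe set had 10.1 in FDFT1 cells, under the floor, and 26.7 in control cells (-1.08, a lower bound on the size, error 0.49). Its other measured probe set was at 0.32, and the mean of both was -0.38. The part of MUC5AC in any difference above was not tested. For GAPDH the 3′ control probe set over the 5′ one, a sign of RNA integrity, was 1.01 in FDFT1 cells and 0.959 in control cells. No probe set lists FDFT1 alone, so the overexpression was not checked here.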

How the data were processed

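The authors deposited 1 linear intensity, a MAS5 signal, for each probe set on each array. The submitters' processing notes name MAS5, and the sources used here do not give its version, scaling target or detection calls. For arrays, their number limits the precision, here 1 per group. Groups came from the sample titles.

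All other steps were computed with Python 3.11.15, numpy 2.4.6, pandas 2.3.3 and statsmodels 0.14.6. The 62 control probe sets were set aside, signals were centred on the median log2 difference over probe sets at or above the floor on both arrays, with the shift shared equally between the arrays, and then floored. Gene names came from the platform annotation of the value table. The probe set error is an SD over genes of how far the values of a gene's 2 brightest probe sets lie apart, divided by the square root of 2, over genes whose pair fell in the same signal range (209 to 884 genes). Compartments were assigned by hand from general knowledge. The members and lists were chosen with earlier results of these data known. Every member could be named, with signals and errors for the measured HSP genes, the 12 brightest DNAJ genes, the 8 highest and 8 lowest members, and further members as examples. From other lists, up to 2 genes each way are named, and SERPINH1 as a further gene past 2 errors. Steps were tested on simulated data. Alternatives were other scalings, floors, gene summaries, probe sets, thresholds and list means.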

Additional observations from a re-analysis of the deposited data

How the results depend on the processing

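No member was 2-fold different under any alternative except without a floor. There 4 of 74 were higher and 1 lower (DNAJB8, DNAJC12, DNAJC5G, HSPA2-AS1 and HSPB3), all at signals under 9.4. Those counts were not set beside the share of all genes without a floor, so they are not a result about the members. At 1.5-fold, 1 member, DNAJA4, was lower. Without centring, where the median of all measured genes was -0.11, 20 members lay above 0, 14 members changed sign, and the medians were -0.070 for all members, -0.081 for the cytosol and nucleus, -0.045 for the endoplasmic reticulum and -0.12 for the mitochondria. Without _x_at and _s_at probe sets the cytosolic and nuclear median was 0.12, over 23 genes. The threshold of 2 errors, added after the data were seen, was passed by 1 member without a floor (DNAJC12). It was passed by 2 with the mean of all probe sets (DNAJC21 and HSPD1), where the mean was set against the error of the brightest probe set. It was passed by 1 without _x_at and _s_at probe sets (DNAJA1), where the error was computed anew from the probe sets left. For DNAJC12 the reason was not tested. With the main settings no member and 7.25% of all measured genes passed it. The shares of all genes under these alternatives are not given here. Single members moved by more than their error in 12 cases without centring, 7 with the mean of all probe sets, 7 without _x_at and _s_at probe sets, 2 without a floor (HSPB7 to -0.98, HSPB9 to -0.80), and none with quantile scaling, loess or the higher floor. The 12 were the members of the brightest range, where the error of 0.097 is smaller than the centring shift. Their number was thus fixed by the shift. The sign changed for 10 members on averaging their probe sets, 3 after loess and 2 without _x_at and _s_at probe sets. With the mean in place of the median, the cytosolic and nuclear value was -0.0098. Planned counts of protein motifs were not run, as no protein sequences were used here. No paired analysis was possible because each group has 1 array. The signal over background limits the dim members: 7 of 61 had a mean log2 signal under 5, where the error is 0.49.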
